A study of Mus musculus with 44 samples.

Results

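The 10 fast-twitch muscle genes Myh1, Myh2, Myh4, Tnnc2, Tnni2, Tnnt3, Mylpf, Atp2a1, Casq1 and Pvalb were followed in the back skin of mice during and after bleomycin injection. They were chosen by name as fast fibre genes, each Ensembl gene identifier being matched to its symbol, and all 10 were found among the 43411 genes of the table. RNA sequencing was available for 44 skin samples, 1 per mouse, from wild-type (WT) C57Bl/6 females that were 8 weeks old when the experiment began. Bleomycin, a DNA-damaging antibiotic used to raise skin fibrosis in mice, was given as a daily injection of 100 µL under the back skin. The sample labels give its concentration as 1 U/mL, while 1 supplementary figure legend of the study gives a lower one. For the saline mice the same injection volume is given. The groups were saline (10 mice), 2 weeks of bleomycin (10 mice), 4 weeks of bleomycin (10 mice), and 4 weeks of bleomycin followed by 6 weeks (6 mice) or 10 weeks (8 mice) of recovery without injection. All mice carried the same wild-type genotype. The harvest time of the saline mice is not given in the labels, so age and recovery cannot be told apart. Each sample was whole skin and not isolated muscle.

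Skeletal muscle reaches a skin biopsy through the panniculus carnosus, the thin sheet of striated muscle under the dermis. A striated fibre contracts when calcium released from the sarcoplasmic reticulum binds troponin C on the thin filament and lets myosin heads pull on actin. Fast fibres build this machine from their own versions of each part, with the type IIb, IIx and IIa myosin heavy chains encoded by Myh4, Myh1 and Myh2, a fast troponin complex, a fast calcium pump and large amounts of the calcium buffer parvalbumin. Slow fibres use a parallel set from other genes. The myosin that a fibre makes sets much of its shortening speed, in the order IIb, IIx, IIa and slow.

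The 3 fast myosin genes lie side by side on the plus strand of chromosome 11, Myh2 at chr11:67171027-67197517, Myh1 at chr11:67200052-67224575 and Myh4 at chr11:67238029-67260446 (GENCODE M21 on GRCm38, the assembly also called mm10). The results turn on Myh1, Myh4 and Pvalb, so the 250 bases before their RefSeq starts are shown, with the neighbouring Myh2 for comparison. They were read from RefSeq on GRCm38.p6, which gave such a window for 8 of the 10 genes (all but Tnni2 and Tnnt3). Capitals mark matches to 4 motifs, the E-box CANNTG bound by the muscle regulators of the MyoD family, the MEF2 motif, the CArG box bound by serum response factor, and TATAAA. The first 3 patterns read the same on both strands, TATAAA was searched on the strand of the gene, and no matches overlapped in the windows printed. The windows are chr11:67237562-67237811 (plus strand) for Myh4, chr11:67199852-67200101 (plus strand) for Myh1, chr11:67170777-67171026 (plus strand) for Myh2 and chr15:78206401-78206650 (minus strand) for the first of 2 RefSeq starts of Pvalb.
Myh4: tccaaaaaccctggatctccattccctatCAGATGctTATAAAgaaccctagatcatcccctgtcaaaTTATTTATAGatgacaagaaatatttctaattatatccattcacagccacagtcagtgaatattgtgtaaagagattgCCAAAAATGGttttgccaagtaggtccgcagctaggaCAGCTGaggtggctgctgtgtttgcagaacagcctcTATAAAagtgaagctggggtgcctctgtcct
Myh1: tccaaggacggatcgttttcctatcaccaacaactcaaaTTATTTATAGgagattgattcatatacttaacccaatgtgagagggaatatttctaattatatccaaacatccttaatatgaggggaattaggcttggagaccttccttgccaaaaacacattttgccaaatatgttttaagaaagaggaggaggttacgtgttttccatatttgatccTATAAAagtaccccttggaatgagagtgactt
Myh2: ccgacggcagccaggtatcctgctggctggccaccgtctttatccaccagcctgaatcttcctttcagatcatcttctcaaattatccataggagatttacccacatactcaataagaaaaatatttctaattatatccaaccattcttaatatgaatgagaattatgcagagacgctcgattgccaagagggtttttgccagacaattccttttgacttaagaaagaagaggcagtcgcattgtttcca
Pvalb: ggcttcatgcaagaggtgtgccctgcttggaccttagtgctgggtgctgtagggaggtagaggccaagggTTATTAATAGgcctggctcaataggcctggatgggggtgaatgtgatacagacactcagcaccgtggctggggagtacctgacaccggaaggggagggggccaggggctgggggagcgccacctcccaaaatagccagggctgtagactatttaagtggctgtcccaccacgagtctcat

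The windows of Myh1 and Myh4 carried the same MEF2 match TTATTTATAG, which began 211 and 182 bases before the start. Pvalb held the match TTATTAATAG, 180 bases before its start. A MEF2 match was present in 2.92% of all 32851 promoter windows of this length. Myh4 alone among the 8 genes had a CArG match, CCAAAAATGG at 104 bases before the start, which 1.47% of all windows held. Myh4 also had 2 E-boxes, at 221 and 67 bases, but an E-box was found in 66.2% of all windows. TATAAA stood 31 bases before the start of Myh4 and 32 bases before that of Myh1, and was present in 7.59% of all windows. The Myh2 window had no match to any of the 4. These are matches of letters and not measured binding sites.

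The values are normalized counts, that is, read counts divided by a size factor for each library, made by the authors. Between 8509094 and 15285577 reads per mouse were behind them, with a median of 11310008.5, and every member was far above the filter of a mean normalized count over 3. Together the 10 genes held 0.654% to 2.91% of the reads of a mouse (median 1.8%). Saline mouse 1 and the second mouse at 2 weeks of bleomycin resembled their own group least across all genes (median correlation within the group 0.9421 and 0.9378), and saline mouse 1 was the lowest saline mouse for 9 of the 10 members, all but Myh2.

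Per kb of exon, the saline means (n = 10 mice) were 16063 for Tnnc2, 13818 for Atp2a1, 13451 for Tnnt3, 11936 for Mylpf, 11038 for Pvalb, 8695 for Myh4, 8304 for Tnni2, 2430 for Myh1, 2367 for Casq1 and 14.9 for Myh2. Thus 9 of the 10 genes were abundant in this skin, and Myh2 was low. The spread between saline mice was wide, with a coefficient of variation from 23.2% for Tnnt3 to 54.7% for Myh2. In bulk skin, fewer muscle fibres in the biopsy and less RNA per fibre cannot be told apart.

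**Figure D1:**
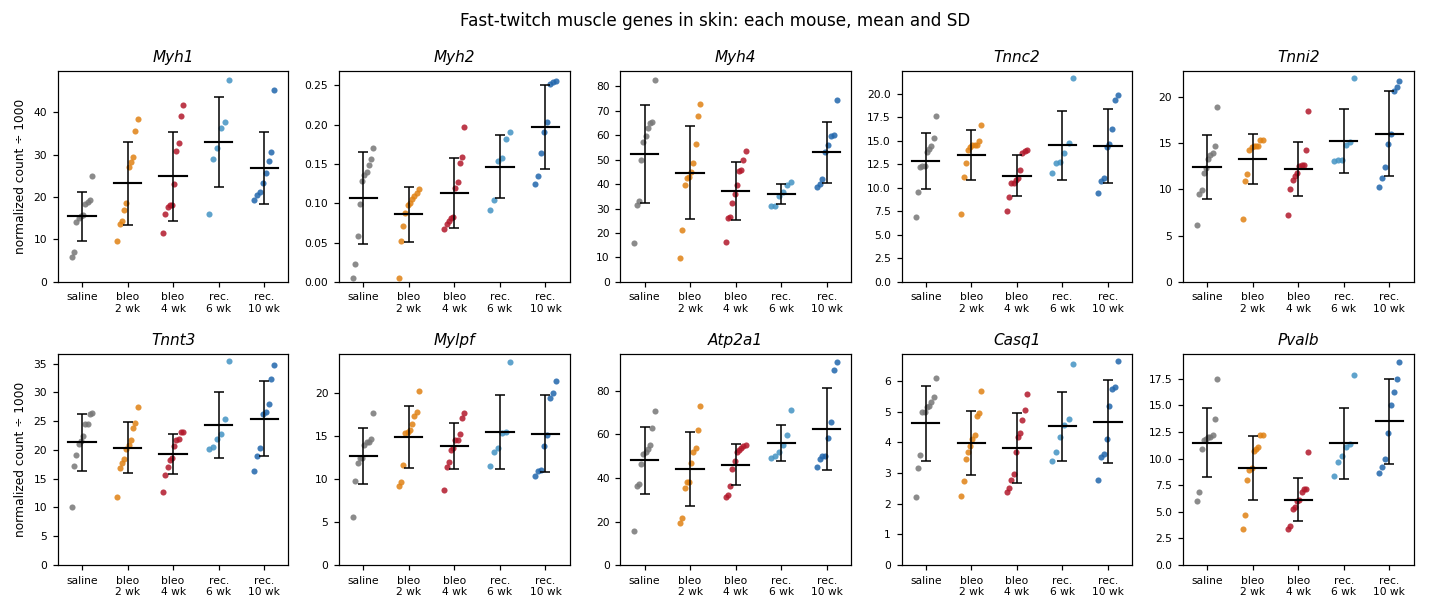
Normalized counts, divided by 1000, of the 10 fast-twitch genes (vertical axis, from 0) in each of the 44 mice by group (bleo, bleomycin; rec., recovery), with 1 point per mouse, the horizontal bar at the group mean and the whisker at 1 SD. Myh1 sits highest at 6 weeks of recovery, Pvalb lowest at 4 weeks of bleomycin, and the troponin genes, Mylpf, Atp2a1 and Casq1 overlap between all groups.

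Among the 10 fast genes, Myh1 was higher and Pvalb was lower in skin given bleomycin for 4 weeks than in saline skin, Myh1 was still higher in recovery, and no call was made for the other 8. With limma on log2 (normalized count + 1), a gene was called at a Benjamini-Hochberg adjusted p below 0.05 over 17037 genes and a change above 1.5-fold. At 2 weeks of bleomycin, 0 of the 10 members were called, where 16.7% of all tested genes were. Only Myh1 of the members had an unadjusted limma p below 0.05, beside 43.9% of all tested genes. DESeq2 called Myh1 alone of the members, while edgeR called none. At 4 weeks, 2 of 10 were called, Myh1 higher and Pvalb lower, a count near the share of all genes called (17.9%). At 6 weeks of recovery Myh1 was the 1 member called, beside 5.04% of all genes, and at 10 weeks of recovery it was again the 1 member called, beside 3.05%. The median log2 fold change over the 10 members was -0.09 and -0.06 at 2 and 4 weeks of bleomycin and 0.26 at both recovery times, against a median of 0.00 over all tested genes in each of these comparisons.

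**Figure D2:**
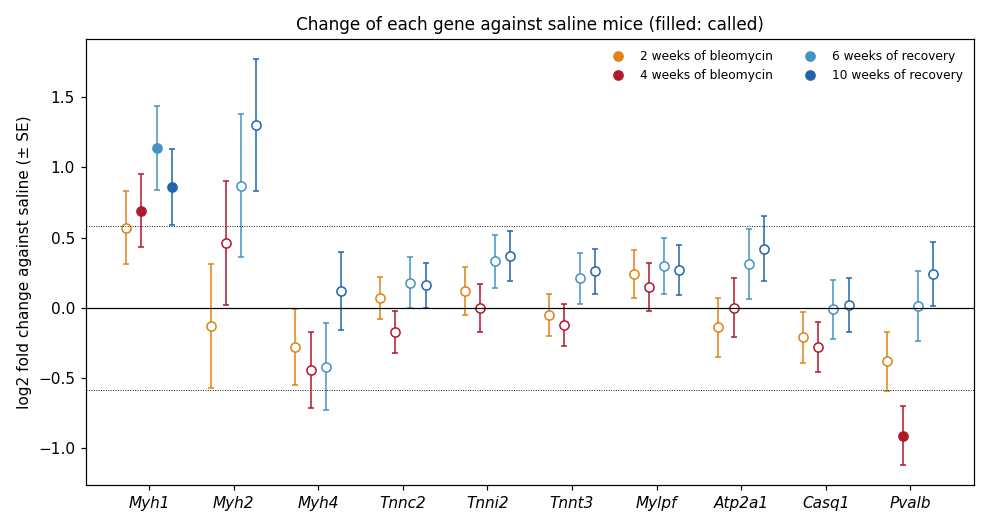
Log2 fold change against saline (vertical axis, with its SE) of each of the 10 genes at 2 and 4 weeks of bleomycin and at 6 and 10 weeks of recovery, with filled points for called changes and dotted lines at 1.5-fold. The filled points are Myh1 at 4 weeks of bleomycin and at both recovery times, all above 0, and Pvalb at 4 weeks of bleomycin at -0.91.

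Myh1 encodes the type IIx heavy chain. Its normalized count in saline skin had a lowest value of 5759, a median of 15638 and a highest of 24926 (15437 ± 5702, SD, n = 10). At 2 weeks of bleomycin the values ran from 9577 through a median of 22778 to 38306, and 5 of the 10 mice were above every saline mouse. At 4 weeks they ran from 11436 through 20646 to 41669, with 4 of 10 mice above all saline mice. Thus the groups overlapped at both times under bleomycin. After 6 weeks of recovery the lowest was 15932, the median 34025 and the highest 47707, and 5 of 6 mice exceeded the saline range. After 10 weeks the range was 19288 to 45370 around a median of 24473, and 8 of 8 mice were above the saline mean. In order of their means, the groups stood as saline, 2 weeks of bleomycin, 4 weeks of bleomycin, 10 weeks of recovery and 6 weeks of recovery, and none of the neighbours that were tested directly in this order was called as different.

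Against saline, Myh1 had a log2 fold change of 0.57 ± 0.26 (SE) after 2 weeks of bleomycin (limma adjusted p = 0.0775) and 0.69 ± 0.26 after 4 weeks (limma adjusted p = 0.0314). In recovery it was 1.14 ± 0.30 (adjusted p = 0.0107) after 6 weeks and 0.86 ± 0.27 (adjusted p = 0.0499) after 10. The last call stood at the threshold and was lost when any 1 of 31 of the 44 mice was left out, or with TMM rescaling, quantile normalization, no filter, edgeR or a fit to the groups compared (adjusted p from 0.0514 to 0.0984). Leaving out the second mouse of the 2-week group or saline mouse 5 made the 2-week change a call. The 4-week call was lost with no filter on low values (0.69, adjusted p = 0.0507), without saline mouse 1 or 6 or without mouse 2, 5, 8 or 10 of its own group, and the 6-week call (adjusted p = 0.0523) without mouse 5 of that group. Without saline mouse 1 and the second 2-week mouse, the value was 0.55 at 4 weeks (adjusted p = 0.0634) and 0.72 at 10 weeks of recovery (adjusted p = 0.0623), both no longer called.

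Myh4 encodes type IIb myosin, the fastest adult heavy chain. Saline mice had a lowest normalized count of 15870, a median of 58516 and a highest of 82770. The medians were 43954 (9764 to 72874) at 2 weeks of bleomycin and 37988 (16102 to 53572) at 4 weeks. They were 36043 (31117 to 40734) at 6 weeks of recovery and 54484 (38657 to 74572) at 10 weeks. All groups overlapped saline, and the 6 mice at 6 weeks of recovery fell in a narrow band inside the saline range. The log2 fold changes were -0.28 ± 0.27 (SE), -0.44 ± 0.27, -0.42 ± 0.31 and 0.12 ± 0.28 in the same order, none past the test (limma adjusted p = 0.448, 0.199, 0.412 and 0.895). Without saline mouse 1 and the second 2-week mouse, the 4-week value was -0.62 and was called (adjusted p = 0.0396).

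Myh2 encodes type IIa myosin. It was low throughout, with saline values from 4.85 through a median of 132 to 171 normalized counts. At 2 weeks of bleomycin the values ran from 5.2 through 98.6 to 119, and at 4 weeks from 67.1 through 101 to 197. At 6 weeks of recovery they ran from 91.4 through 155 to 190. At 10 weeks of recovery the range was 124 to 256 with a median of 197, and 5 of 8 mice were above all saline mice. That difference, 1.30 ± 0.47 on the log2 scale, was not called (limma adjusted p = 0.0917), although leaving out the second 2-week mouse made it a call (adjusted p = 0.0325). One saline mouse, the sixth, stood at 4.85 normalized counts, and without it the log2 fold change was 0.88 (adjusted p = 0.198). The ratio of the group means was 1.85.

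Reads from these 3 genes are not fully separable. Of all stretches of 50 bases in the transcript, the read length used, 26.72% in Myh1, 26.9% in Myh2 and 18.9% in Myh4 also occur in another gene, for Myh1 mostly Myh2 (19.66%). In saline skin the mean normalized count was 107 for Myh2 and 15437 for Myh1. A small share of Myh1 reads assigned to Myh2 could thus weigh on any Myh2 level, ratio or correlation given here. This was not tested. No shared stretch was found in Tnnc2, Tnni2, Tnnt3, Mylpf, Casq1 or Pvalb, and 0.12% of those of Atp2a1 were shared. Exons of genes on the opposite strand overlap Myh1 (Myhas), Myh2 (9430073C21Rik), Tnnc2 (Ube2c), Atp2a1 (Rabep2) and Casq1 (Gm17224). The libraries were stranded, but how strand was used in counting is not given in the sources used here, so the counts of these 5 genes are uncertain to that extent.

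The share of Myh1 among the adult myosins of a mouse was higher in the treated groups than in saline, and that of Myh4 lower. The normalized counts per kb of exon of Myh1, Myh2, Myh4 and the slow myosin Myh7 were summed, and each gene was given as its share. In saline skin Myh4 held 77.2% ± 7.96 (SD, n = 10) and Myh1 22.7% ± 7.94. The Myh1 share was 34.2% ± 16.8 at 2 weeks of bleomycin, 39.0% ± 16.3 at 4 weeks and 45.4% ± 8.67 (n = 6) at 6 weeks of recovery. It was 31.9% ± 5.09 (n = 8) at 10 weeks of recovery. The Myh4 share at 6 weeks of recovery was 53.9% ± 8.83. Mean Myh2 shares stayed between 0.107% and 0.212% in all groups.

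The log2 ratio of Myh1 to Myh4 in each mouse does not depend on the library size. Its saline values ran from -2.55 through a median of -1.81 to -0.33. At 4 weeks of bleomycin they ran from -1.80 through -0.78 to 1.37, and at 6 weeks of recovery from -1.21 through -0.12 to 0.28, where 5 of 6 mice stood above all saline mice. At 10 weeks of recovery the range was -1.51 to -0.59, inside the saline range, with 8 of 8 mice above the saline mean. The mean differed from saline by 0.85 and 1.13 under bleomycin and by 1.56 and 0.74 in recovery, in order of time. In two-sided permutation tests (100000 resamples under bleomycin, all regroupings in recovery), the p-values adjusted over 12 tests of myosin pairs were 0.0462, 0.0214, 0.003 and 0.0214.

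The 2-week difference stood near the threshold, although 10 of 10 mice were above the saline mean. Mouse 4 of that group had a Myh1 share of 78.5%, the highest of all 44 mice, and without it the ratio difference was 0.53 (adjusted p = 0.0889 in the same permutation test). Leaving out any 1 of 17 mice ended the 2-week call. Some of these were mice at 6 weeks of recovery, outside this comparison. Without 1 of them the difference stayed at 0.85, and only the permutation adjusted p moved (0.0554). Leaving out saline mouse 1 and the second 2-week mouse together also ended the call (0.91, permutation adjusted p = 0.063). In the other 3 groups the ratio of Myh1 to Myh4 passed the test with each of the 44 mice left out in turn. Myh2 relative to Myh4 was also higher, by 1.29 at 6 weeks (adjusted p = 0.033, lost without any 1 of 4 of the 6 mice) and by 1.18 at 10 weeks of recovery (adjusted p = 0.0167). The ratio of Myh2 to Myh1 did not pass, with adjusted p-values from 0.206 to 0.675 in the permutation tests of means. At 2 weeks it was lower with the median over mice (-0.74, permutation adjusted p = 0.027) and without saline mouse 6 (-1.01, adjusted p = 0.0148).

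**Figure D3:**
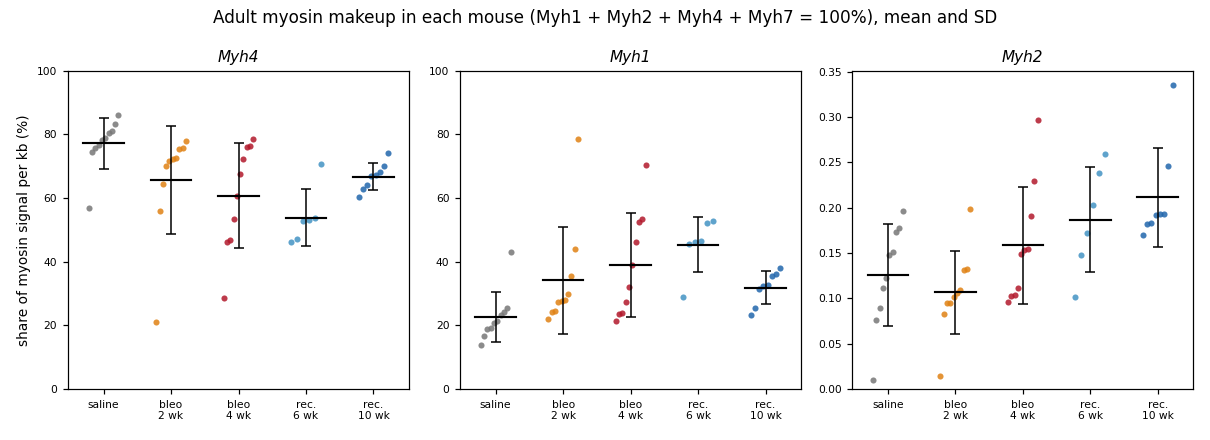
Share of Myh4, Myh1 and Myh2 (vertical axes, %, from 0, with a smaller scale for Myh2) in the summed normalized counts per kb of Myh1, Myh2, Myh4 and Myh7 in each mouse by group, with the mean and SD. The mean Myh1 share is 22.7% in saline and 45.4% at 6 weeks of recovery, and 1 mouse at 2 weeks of bleomycin stands alone at 78.5%.

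Pvalb (chr15:78191114-78206400, minus strand) encodes parvalbumin, which binds calcium in the cytosol of fast fibres and speeds their relaxation. Its normalized count in saline skin ran from 5983 through a median of 11936 to 17511. It ran from 3361 through 9900 to 12217 at 2 weeks of bleomycin. At 4 weeks it ran from 3343 through 6068 to 10610, and 5 of 10 mice were below every saline mouse. At 6 weeks of recovery the values were again inside or above the saline range, from 8413 through 10673 to 17895, and at 10 weeks from 8630 through 13766 to 19050. Pvalb was lower at 4 weeks than in saline by a log2 fold change of -0.91 ± 0.21 (SE, limma adjusted p = 0.000621), a call that remained in every alternative tried, each mouse left out included.

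Pvalb rose between 4 weeks of bleomycin and 6 weeks of recovery by 0.92 ± 0.25 on the log2 scale (limma adjusted p = 0.00429). It was the 1 member of 10 called in that comparison, a count near the share of all tested genes called (11.9%). The Pvalb call there too remained in every alternative and with each mouse left out. Between 2 and 4 weeks of bleomycin 0 members were called by limma, edgeR or DESeq2, where limma called 2.35% of all tested genes. Of the members, Pvalb had the 1 unadjusted limma p below 0.05 there (-0.54 ± 0.21, adjusted p = 0.129), beside 20.8% of all tested genes. Pvalb was called when saline mouse 1 and the second 2-week mouse were left out (-0.63, adjusted p = 0.0495) or when mouse 4 of the 2-week group was. Between 6 and 10 weeks of recovery 0 members were called by each of the 3 tools, where limma called 0.088% of all tested genes. No member had an unadjusted limma p below 0.05 there, beside 12.0% of all tested genes.

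The fast troponin genes encode the calcium sensor (Tnnc2, chr2:164777161-164779967), the inhibitory subunit (Tnni2, chr7:142441808-142444410) and the tropomyosin-binding subunit (Tnnt3, chr7:142498836-142516009). Saline medians were 13019 for Tnnc2 (6874 to 17658), 12805 for Tnni2 (6149 to 18894) and 21971 for Tnnt3 (10099 to 26444). At 4 weeks of bleomycin the medians were 10928, 12195 and 19681, and every 4-week mouse lay inside the saline range for all 3 genes. At 10 weeks of recovery the medians were 14514, 15483 and 26409, with 2, 3 and 4 of 8 mice above all saline mice. None of the 3 was called at any time. Their log2 fold changes against saline stayed between -0.17 and 0.37.

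Mylpf (chr7:127208890-127214298) encodes the fast regulatory light chain of myosin. Its saline values ran from 5562 through a median of 13193 to 17655, and the group medians under bleomycin were 15503 and 14021, then 14477 and 14472 in recovery. Atp2a1 (chr7:126445858-126463108) encodes SERCA1, the pump that returns calcium to the sarcoplasmic reticulum of fast fibres. It ran from 15451 through 51381 to 70705 in saline, and the medians were 42489, 49956, 53705 and 54240 in the 4 other groups in order of time. Casq1 (chr1:172209894-172219868) encodes the calcium store protein of that reticulum, with a saline range of 2211 to 6102 around 5078 and medians of 3992, 3931, 4370 and 4643. None of these 3 genes was called at any time, and all their groups overlapped saline.

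The troponin and calsequestrin genes of fast fibres were lower relative to their slow counterparts in treated than in saline mice. In saline skin 4 of the 6 slow genes were near the floor in some mice. Their median normalized counts were 10.2 for Tnnc1 (0 to 37.6), 15.9 for Tnni1 (2.3 to 38.2), 23.7 for Myl2 (2.6 to 98.1) and 18.3 for Myh7 (0.9 to 206.4). Tnnt1 (median 81.4, 30.3 to 162.8) and Casq2 (134, 97.0 to 155.9) were low but above the floor in every saline mouse. Tnnc1, the slow and cardiac troponin C, was above the highest saline mouse in 10 of 10 mice at 2 weeks of bleomycin (median 89.3), in 10 of 10 at 4 weeks (218), in 6 of 6 at 6 weeks of recovery (172) and in 8 of 8 at 10 weeks (89.6). Tnnc1, Tnni1, Tnnt1 and Casq2 were called higher in all 4 comparisons with saline, in which Tnnc2, Tnni2, Tnnt3 and Casq1 were not called.

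Each ratio was taken after adding 1 to both normalized counts. Where a slow gene was at or near 0, as in some saline mice, the size of the ratio depends on that 1. Adding 0.1 instead changed no call of a ratio. The log2 ratio of Tnnc2 to Tnnc1 was 10.66 ± 2.13 (SD, n = 10) in saline and fell to 7.22 ± 0.69 at 2 weeks and 5.27 ± 0.73 at 4 weeks of bleomycin. It was 6.47 ± 0.62 (n = 6) and 6.55 ± 1.71 (n = 8) at 6 and 10 weeks of recovery. With 6 pairs and 4 comparisons, p-values were adjusted over 24 permutation tests, and 21 passed. The difference of the Tnnc2 and Tnnc1 ratio at 4 weeks, -5.39, had an adjusted p of 4.8e-05, from the smallest p that 100000 resamples can give (1e-05), with 10 of 10 mice below all saline mice. The ratio of Tnni2 to Tnni1 differed from saline by -2.49, -4.0, -2.09 and -2.07 at 2 and 4 weeks of bleomycin and 6 and 10 weeks of recovery. That of Tnnt3 to Tnnt1 differed by -1.65, -2.88, -2.49 and -2.09, and that of Casq1 to Casq2 by -1.61, -2.38, -0.87 and -0.79. All 12 of these passed, with adjusted p-values from 4.8e-05 to 0.00773.

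The myosin pairs followed another course. The ratio of Myh4 to the slow heavy chain Myh7 did not pass at 2 weeks (0.15, permutation adjusted p = 0.89), and passed in each later group, with differences of -2.86 (0.0139), -5.32 (0.000856) and -4.85 (0.000731) in order of time. The ratio of Mylpf to the slow regulatory light chain Myl2 differed by 1.11 at 2 weeks (permutation adjusted p = 0.0886) and by -0.48 at 4 weeks (0.477), and passed at 6 weeks (-2.70, 0.00159) and 10 weeks of recovery (-3.05, 0.000844). The 4-week difference of Myh4 to Myh7 did not pass with the median over mice (-2.03, adjusted p = 0.0562), and the 2-week difference of Mylpf to Myl2 passed without saline mouse 7 (1.42, adjusted p = 0.023) or mouse 4 of the 2-week group (1.33, adjusted p = 0.0432). The lowest mean was at 4 weeks of bleomycin for the troponin and calsequestrin pairs, and in recovery for the myosin pairs. The difference in timing between pairs was not tested. Mouse 2 at 10 weeks of recovery had the highest Myh7 share of all mice, 6.40%, where the other mice of its group ranged from 0.0971% to 1.30%. No paralog ratio at that time lost its call without it.

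**Figure D4:**
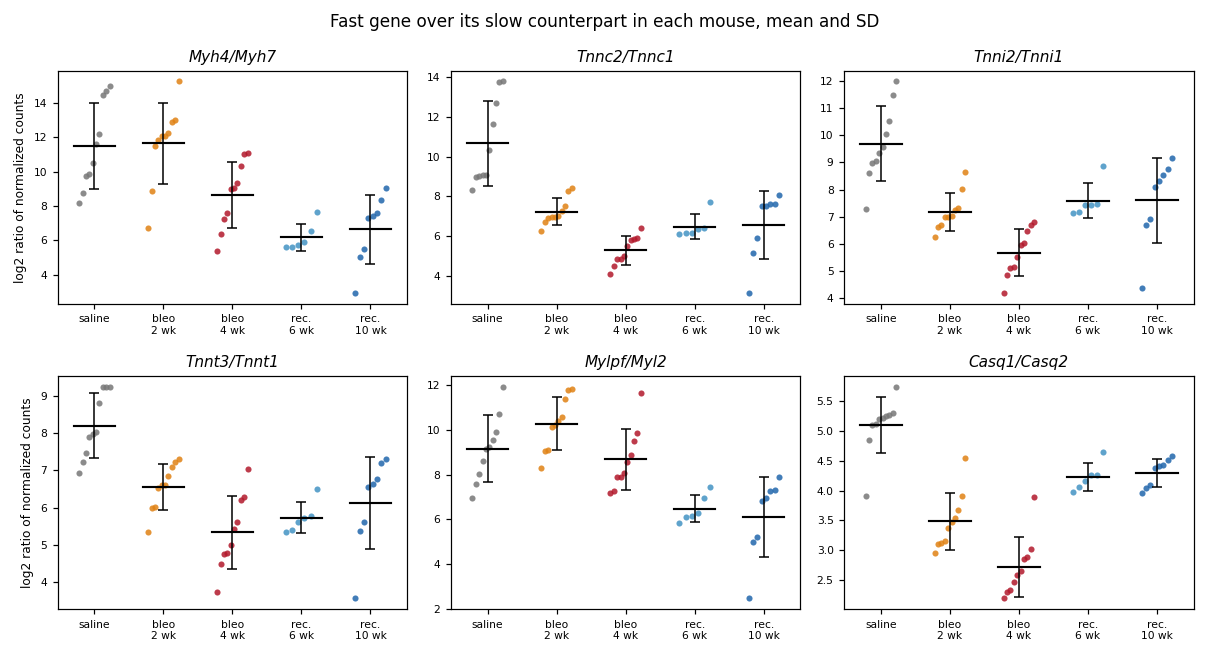
Log2 ratio of normalized counts of each fast gene to its slow counterpart (vertical axes, 1 point per mouse, with the mean and SD) by group for 6 pairs. Every count had 1 added before the ratio was taken. The 3 troponin pairs and Casq1 to Casq2 have their lowest mean at 4 weeks of bleomycin, and Mylpf to Myl2 and Myh4 to Myh7 have theirs at 10 and 6 weeks of recovery.

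Over the slow fibre list as a whole, 8 of 15 genes were called higher and 1 lower at 2 weeks of bleomycin, and 10, 11 and 12 of 15 were called higher in the later groups in order of time, with 0 lower, beside 16.7%, 17.9%, 5.04% and 3.05% of all tested genes called in either direction. The median log2 fold change of the list was 0.69, 1.37, 1.31 and 1.13, where that of the 10 fast genes was -0.09, -0.06, 0.26 and 0.26. Not all slow myosin genes followed at 2 weeks, where the ratio of the group mean to saline was 0.5 for Myh7 and 0.46 for Myl2. It was 0.46 for Myl3, 0.26 for Myh7b and 1.73 for Myl6b, all at low counts. Whether fibres changed type was not tested. The largest calls at 4 weeks of bleomycin were Tnnc1 (5.22 ± 0.56, SE), Tnni1 (4.00 ± 0.44), Tnnt1 (2.76 ± 0.36) and Myh7 (2.41 ± 0.83). Between 4 weeks of bleomycin and 6 weeks of recovery, Tnni1 fell by 1.59 and Casq2 by 1.24, while Myl2 rose by 2.37 (limma adjusted p = 0.0133). Myh7 rose by 2.49, a call at the threshold (limma adjusted p = 0.05).

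A further list held 20 fast fibre genes, such as Actn3, Myl1 and the glycolytic enzymes. At 2 weeks of bleomycin 3 were called higher and 0 lower, at 4 weeks 2 and 1, at 6 weeks of recovery 4 and 0, and at 10 weeks 3 and 0. The share of all tested genes called was 16.7%, 17.9%, 5.04% and 3.05%, so the list lay near that share under bleomycin. Cacng1, a subunit of the calcium channel of the fibre membrane, was higher in all 4 comparisons, with log2 fold changes of 1.35, 1.67, 1.35 and 1.02 in order of time. Tmod4, which caps thin filaments, was also called in all 4, with values from 0.60 to 0.68. Pfkm, muscle phosphofructokinase, was higher at 6 weeks (0.65 ± 0.19, SE) and 10 weeks of recovery (0.76 ± 0.17), and Ampd1, muscle AMP deaminase, was lower at 4 weeks of bleomycin (-0.59 ± 0.23, limma adjusted p = 0.0385). Actn3, the fast fibre actinin, had values between -0.19 and 0.20 and was not called.

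Genes that are expressed in muscle of any fibre type gave a second yardstick. Of 17 such genes measured, 8 were called higher in each of the first 3 comparisons with saline, and 11 at 10 weeks of recovery, with 0 lower, beside the same 16.7%, 17.9%, 5.04% and 3.05%. The largest calls at 4 weeks of bleomycin were Mymk (4.31 ± 0.46, SE), which is needed for fusion of muscle precursors, Neb (1.57 ± 0.37) and Ttn (1.29 ± 0.17), which encode giant filament proteins, and Cav3 (1.33 ± 0.15), the caveolin of muscle. The mean log2 level of this list was itself higher than in saline (9.33), at 10.05, 10.17, 9.98 and 9.94 in the other groups in order of time. A lower level relative to it need not be a fall of the member. Set against the mean of this list in the same mouse, 8 of the 10 members were lower than in saline at both 2 and 4 weeks of bleomycin, all but Myh1 and Myh2. Of these 8, only Pvalb at 4 weeks was called lower than saline by itself. The same 8 were lower at 6 weeks of recovery, where Myh1 was higher by 0.50 (permutation adjusted p = 0.024 over 40 tests), and 6 were lower at 10 weeks. Pvalb had the largest deficit, -1.75 at 4 weeks. Myh2 passed at 2 and 4 weeks with the median over mice (-1.16 and -1.02, permutation adjusted p = 0.0341 for both) and without saline mouse 6 (-1.20, adjusted p = 0.00669, and -0.73, adjusted p = 0.0162). The Myh1 difference at 6 weeks of recovery was lost without mouse 4 of that group (0.44, adjusted p = 0.0538), and that of Atp2a1 without any 1 of 12 mice (adjusted p up to 0.0887). At 10 weeks of recovery Atp2a1 passed without saline mouse 1 and the second 2-week mouse (-0.25, adjusted p = 0.042), Tnni2 without any 1 of 4 mice (adjusted p from 0.00538 to 0.0403) and Myh1 without saline mouse 5 (0.35, adjusted p = 0.0327), while Pvalb did not pass with the median over mice (-0.40, adjusted p = 0.0671). The result depended on the yardstick, which includes the called genes above. Without Mymk, 33 of the 40 tests passed, Tnni2 (-0.33, permutation adjusted p = 0.00402) and Atp2a1 (-0.28, adjusted p = 0.0387) at 10 weeks of recovery being added. With Acta1, the skeletal actin, as the sole reference, 3 of the 40 tests passed, Pvalb at 4 weeks of bleomycin and Myh1 at both recovery times, against 31 with the list. Acta1 itself was not called (log2 fold changes -0.04 to 0.22).

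Of 16 transcriptional regulators linked to fibre type or muscle identity, 1, 3, 3 and 4 were called higher at 2 and 4 weeks of bleomycin and 6 and 10 weeks of recovery, and 0 lower, again beside 16.7%, 17.9%, 5.04% and 3.05% of all genes. The list is not specific to fast fibres, since Prox1, Vgll2 and Mef2c are also tied to the slow programme. Mef2c, a MEF2 factor, was the one called in all 4, by 0.61 ± 0.15 (SE), 0.90 ± 0.15, 0.73 ± 0.18 and 0.73 ± 0.16. Its normalized count exceeded every saline mouse in 10 of 10 mice at 4 weeks. Vgll2, a TEAD cofactor, was higher at 4 weeks of bleomycin (0.80 ± 0.26) and in recovery (1.32 ± 0.30 and 1.48 ± 0.28), Mafa, a large Maf factor, in recovery (0.74 ± 0.23 and 0.79 ± 0.21), and Prox1, a homeobox factor, at 4 weeks (0.93 ± 0.16). Mef2c and other of these genes are also expressed outside muscle, and whether their RNA came from muscle was not tested.

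Genes of developing, denervated or regenerating muscle rose under bleomycin. Of 18 measured, 14 were called higher at 2 and at 4 weeks of bleomycin, 8 at 6 weeks and 5 at 10 weeks of recovery, and 12 were called lower at 6 weeks of recovery than at 4 weeks of bleomycin. The shares of all genes called were 16.7%, 17.9%, 5.04% and 3.05% against saline, and 11.9% in the last comparison. Myh8, the perinatal myosin encoded in the same cluster as the fast myosins, had a saline median of 126 (48.9 to 199.5) and a median of 1645 (656 to 5270) at 4 weeks, a log2 fold change of 3.90 ± 0.35 (SE). All 10 mice at 4 weeks exceeded all saline mice, as all 10 did at 2 weeks. Chrng, the fetal subunit of the acetylcholine receptor, rose by 4.31 ± 0.44, and Myl4, an embryonic light chain, by 4.10 ± 0.27.

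Markers of some other skin cells also moved with the groups. The share of all tested genes called against saline was 16.7%, 17.9%, 5.04% and 3.05% in order of time. Of 6 macrophage markers 4 were called higher at both 2 and 4 weeks of bleomycin and 0 in recovery, and their summed normalized count ran from 5375 to 12766 in saline and from 10228 to 23889 at 4 weeks. Of 6 fat cell markers 3 were lower at 2 and at 4 weeks. Of 6 fibroblast markers 3 were lower at 2 weeks and 1, Pdgfra, at every other time against saline. All 4 growing hair markers measured were lower at 2 and 4 weeks, and their sum ran from 1843 to 194268 in saline and from 15.7 to 4294 at 4 weeks, with 2 of the 4 at 0 in some mice at 2 weeks and none at 0 in the other groups. No marker of the other 5 lists was at 0 in any mouse. Of 6 smooth muscle markers 1, Smtn, was lower at 2 weeks, a count near the share of all genes. None of 6 epidermal markers was called in any comparison. The part of these shifts in the levels of the fast genes was not tested.

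Between mice of one group, the fast genes varied together but not as a single block. With group means removed, Pearson's r across the 44 mice was 0.94 for Tnnc2 with Tnnt3, 0.93 for Tnni2 with Tnnt3 and 0.70 for Myh1 with Myh2. Myh1 stood apart from Myh4 (r = 0.10) and from Pvalb (r = 0.07). The genes outside the 10 that followed the mean of the members most closely were Ldb3 (0.960), Tmem38a (0.957), Myom1 (0.947), Slc2a4 (0.945), Ckm (0.941), Pygm (0.941), Cacna1s (0.940) and Camk2a (0.939). All points share the size factor of their library and the amount of muscle in the biopsy, and these values are given as a description.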

How the data were processed

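RNA was extracted from mouse back skin, prepared with a stranded TruSeq mRNA kit and sequenced on an Illumina HiSeq instrument. The submitters' processing notes name mm10, STAR 2.4.0 and DESeq2 1.12.3. The authors deposited 1 table of normalized signal, that is, gene counts divided by a size factor for each library. How reads were counted, with which annotation and strand option, is not given in the sources used here. The deposited values of every mouse were whole multiples of 1 read (100.0% within 0.02), and reads were recovered from them for depth, edgeR and DESeq2. Symbols were found for 42929 of 43411 identifiers (98.9%).

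The test was limma 3.58.1 (R 4.3.3), with trend, on log2 (normalized count + 1), 5 groups in 1 fit. The 17037 genes averaging over 3 entered. A gene was called at a Benjamini-Hochberg adjusted p below 0.05 and a change above 1.5-fold. Ratios within a mouse, taken after adding 1 to each normalized count, were compared by two-sided permutation tests (numpy 2.4.6). Their p-values were adjusted within the 12, 24 or 40 tests of a family. Alternatives were edgeR 4.0.16, DESeq2 1.42.0, another pseudocount, filter or scaling, and mice left out. The fits were run on simulated counts in which genes varied independently between mice. That check does not cover variation shared by the muscle genes. All 10 members are reported, and for other lists up to 4 called genes with the largest change are named, with Acta1, Actn3, Myh8 and the slow partners added where a comparison needed them. Members and lists were chosen with earlier results of these data known. Replicate numbers were not used to pair mice (median correlation of same-numbered mice -0.002, of other pairs -0.004). Listed genes not analysed here were Hjv, Krt85, Myh3, Ryr1, Tchh and Trdn.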

Additional observations from a re-analysis of the deposited data

Results flagged for a closer look

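In 65 sets of values (each member, and each fast myosin share, in each group), 15 had 1 mouse whose gap to its neighbour was large for the range of its group. Chance marks about 1 in 20 such sets, and sets from the same mouse are not independent.

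Mouse 5 at 6 weeks of recovery was the highest of its group for 9 of the 10 members, all but Myh2. It stood far from the next mouse in 5 of them, with normalized counts of 21688 for Tnnc2, 22064 for Tnni2, 35392 for Tnnt3, 23591 for Mylpf and 17895 for Pvalb, where the next mouse had 14709, 15147, 25396, 15444 and 11358. Mouse 4 at 2 weeks of bleomycin had the lowest Tnni2 of its group, 6819, together with a Myh1 share of 78.52% and a Myh4 share of 21.14%, where the next mice had 43.97% and 55.84%.

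Saline mouse 5 had a Myh1 share of 42.92% and a Myh4 share of 56.84%, against a next saline value of 25.55% and 74.35%. Mouse 6 at 6 weeks of recovery departed the other way, with a Myh1 share of 28.93% and a Myh4 share of 70.67%. Mouse 7 at 10 weeks of recovery had the highest Myh1, 45370 (next 30714), and mouse 1 of that group the highest Myh2 share, 0.3348% (next 0.2465%). Mouse 6 at 4 weeks of bleomycin had the highest Pvalb of its group, 10610 (next 7172).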

How the results depend on the processing

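Of 10 members, the number called at 10 weeks of recovery went from 1 to 0 without a filter on low values, with TMM rescaling, with quantile normalization, with only the groups compared, with edgeR and with 42 mice (saline mouse 1 and the second 2-week mouse left out). At 4 weeks of bleomycin it went from 2 to 1 without the filter (Myh1 lost), at 2 weeks from 0 to 1 with DESeq2, and between 2 and 4 weeks from 0 to 1 with 42 mice. With 1 mouse left out, the counts ran from 0 to 1, 1 to 2, 0 to 1 and 0 to 2 in the 4 comparisons with saline, in order of time, from 0 to 1 between 2 and 4 weeks, and stayed at 1 from 4 weeks of bleomycin to recovery and at 0 between recovery times. The ratio tests that passed ran from 4 to 6 (myosins), 21 to 22 (paralogs) and 29 to 33 (relative to the muscle list). Chosen after seeing the data, with Acta1 as the reference 3 of 40 relative differences passed against 31 with the list, of which 2 were among the 31 and Myh1 at 10 weeks of recovery (0.73, permutation adjusted p = 0.0316) was added. The sign of 12 turned, to 0.11 and 0.03 (Tnnc2 at 2 weeks of bleomycin and 10 weeks of recovery), 0.16 and 0.10 (Tnni2 at 2 weeks and 6 weeks of recovery), 0.13 (Tnnt3 at 10 weeks), 0.28, 0.15, 0.08 and 0.14 (Mylpf at the 4 times), 0.00 and 0.09 (Atp2a1 at 4 weeks and 6 weeks of recovery) and 0.10 (Pvalb at 10 weeks), none of which passed. A replicate block changed no call of a member (0, 2, 1 and 1 against saline). Same-numbered mice correlated above 0.1 in 18 of 78 pairs, with a median of -0.002 beside -0.004 for other pairs. The share above 0.1 among other pairs was not taken, so that count does not settle whether the numbers pair the mice. Over all genes, the calls went from 519 to 326 at 10 weeks of recovery with only the groups compared, and between recovery times from 15 to 59 so fitted, to 63 with DESeq2 and to 58 with 42 mice. edgeR on the recovered reads called 2922, 3136, 893 and 570 genes against saline, where limma called 2851, 3053, 859 and 519. The cause of these changes was not tested.

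The depth does not limit the abundant members, while Myh2 and most slow partners rest on few reads in some mice. The age of the saline mice at harvest is not given, so a change in recovery cannot be told apart from age. The amount of muscle in each biopsy is not known apart from these genes, and the muscle list and Acta1 gave different answers as measures of it.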
